A study of Mus musculus with 4 samples.

Results

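Chromatin accessibility was described at 9 genes of coagulation and clot regulation, F3, F7, F10, F5, F13a1, Thbs1, Thbd, Procr and Serpinb2, in large peritoneal macrophages (LPMs), the resident macrophages of the peritoneal cavity. Overlapping peaks of 4 ATAC-seq libraries, by 1 bp or more, were joined into 70744 regions. A merged region was assigned to a gene when its midpoint lay nearest to that gene's transcription start site (TSS) or when it overlapped the gene body. This assigned 70 of the 70744 regions to the 9 genes, of 24963 annotated genes. The study examined how the nuclear receptors RXRα and RXRβ shape LPMs, and compared cells sorted from C57BL/6 mice at 9 weeks of age. Of the 4 libraries, 2 (replicates 1 and 3) came from Rxrab fl/fl controls, which carry floxed Rxra and Rxrb alleles and no Cre, and 2 (replicates 1 and 2) came from LysMCre+ Rxrab fl/fl mice. Cre under the lysozyme M promoter deletes both receptor genes in myeloid cells in general, so the deletion was not limited to LPMs. Each library was made from 40000 cells, and the study left out samples that did not cluster with their own group. The labels do not say whether libraries of 1 genotype came from separate mice, so p-values measure only the spread between these libraries, which may be technical. For a single region, 2 against 2 libraries allow no two-sided exact permutation p under 0.333.

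Coagulation begins when tissue factor, the product of F3, binds factor VII, and the complex activates factor X. Activated factor X, with factor V as its cofactor, generates thrombin, which forms fibrin that the transglutaminase factor XIII then crosslinks, while thrombomodulin and the endothelial protein C receptor turn thrombin towards the activation of protein C, an anticoagulant. Peritoneal macrophages in mice are known to make factor V and to take part in clotting within the cavity during infection.

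Sequences of 8 regions are shown because the later results turn on them. At the first 4, the summit pileup was lower in LysMCre+ Rxrab fl/fl past the threshold of the test described below. The next 3 are the strongest regions of Serpinb2, F3 and F13a1, and the last, upstream of the F13a1 TSS, was called in LysMCre+ Rxrab fl/fl alone. For each gene, strongest means the highest mean log2 fold enrichment over the libraries that called a region, which need not be the highest in each library. Each sequence covers 50 bases either side of the strongest summit, or fewer where untranslated bases were left out, read 5′ to 3′ from the RefSeq assembly GRCm38 (mm10) on the strand of the gene. Capitals mark a match on either strand to the GATA pattern (AGATAA, or the same with T as its first base) or to the C/EBP pattern (TTGCNNAA).
F7, 1.78 kb downstream, chr8:13027798-13027898, plus strand: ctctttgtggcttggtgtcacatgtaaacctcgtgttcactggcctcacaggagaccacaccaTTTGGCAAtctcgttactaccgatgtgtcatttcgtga
F10, 0.506 kb upstream, chr8:13036584-13036684, plus strand: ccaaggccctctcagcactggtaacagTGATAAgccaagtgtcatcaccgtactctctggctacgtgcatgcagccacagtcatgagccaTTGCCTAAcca
F5, 18.8 kb downstream, chr1:164170625-164170725, plus strand: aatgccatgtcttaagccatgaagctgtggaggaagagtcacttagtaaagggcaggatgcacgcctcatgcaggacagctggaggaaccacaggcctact
Serpinb2, 9.22 kb upstream, chr1:107502201-107502301, plus strand: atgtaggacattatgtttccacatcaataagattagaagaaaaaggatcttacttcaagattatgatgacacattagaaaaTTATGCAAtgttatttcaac
Serpinb2, 14.3 kb upstream, chr1:107496974-107497074, plus strand: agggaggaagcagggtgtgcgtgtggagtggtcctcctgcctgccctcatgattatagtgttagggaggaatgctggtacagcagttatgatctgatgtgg
F3, 1.56 kb upstream, chr3:121721774-121721874, plus strand: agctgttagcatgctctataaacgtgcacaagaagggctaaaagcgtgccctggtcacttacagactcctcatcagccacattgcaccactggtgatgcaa
F13a1, 6.58 kb upstream, chr13:37056813-37056913, minus strand: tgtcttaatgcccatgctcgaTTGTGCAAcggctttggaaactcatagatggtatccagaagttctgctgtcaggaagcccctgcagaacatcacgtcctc
F13a1, 0.098 kb upstream, chr13:37049214-37049310, minus strand: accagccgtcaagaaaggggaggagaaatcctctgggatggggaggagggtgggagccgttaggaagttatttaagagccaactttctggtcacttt

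Within 100 bp either side of the summit, the C/EBP pattern was found in 12 of the 70 regions (17.1%), against 11.1% of all merged regions. The GATA pattern was found in 7 of 70 (10%, against 10.6%) and the AP-1 pattern TGANTCA in 8 (11.4%, against 12.7%). Matches to PU.1 (GAGGAAGT) numbered 3 (4.29%, against 9.3%), those to KLF (GGGNGGGGC) 2 (2.86%, against 7.74%) and those to the E-box CACGTG 2 (2.86%, against 5.12%). The nuclear receptor elements DR1 and DR5 matched in 0 of the 70 regions, against 0.164 and 0.151% of all merged regions. Of the 13 clotting gene regions called in all 4 libraries, 5 held the C/EBP pattern (against 10.3% of all regions called in all 4), 2 the GATA pattern (8.07%) and 1 the AP-1 pattern (12.3%). None of the 13 held PU.1 (7.27%), KLF (16.8%), the E-box (7.61%), DR1 (0.197%) or DR5 (0.184%). Median GC content was 49% in the 70 regions and 51.7% in all merged regions. These shares describe letters near summits, and no test was run on them.

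The libraries differed in how much was called. Rxrab fl/fl replicates 1 and 3 held 38048 and 16097 peaks, which covered 15.3 and 5.77 Mb, and LysMCre+ Rxrab fl/fl replicates 1 and 2 held 65421 and 55581 peaks, which covered 26.5 and 24.3 Mb. Fold enrichment is the height of the peak summit over the local background of the library, and the pileup is the number of extended reads over the summit, solved from the p-value and fold enrichment of each peak. Over the 15199 regions called in all 4 libraries, the median pileup was 97 and 20 in the controls, against 99 and 65 in LysMCre+ Rxrab fl/fl, and the median fold enrichment was 14.5, 7.52, 15.1 and 12 in the same order. Rxrab fl/fl replicate 3 was the lowest of the 4 on each of these measures. Values of every library are given below in this order: Rxrab fl/fl replicate 1, Rxrab fl/fl replicate 3, LysMCre+ Rxrab fl/fl replicate 1 and LysMCre+ Rxrab fl/fl replicate 2.

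Markers were read from promoters called in each library. Of 10 LPM markers, 8, 6, 9 and 9 had a called promoter, with summed fold enrichments of 74.3, 36.4, 76 and 70.1. Adgre1, which encodes F4/80, was highest in every library, and the promoter of Csf1r was called in none. Gata6, the defining transcription factor of LPMs, had a promoter fold enrichment of 11.3, 7.61, 5.80 and 8.61. At the LPM markers called in all 4 libraries, Gata6 among them, the genotypes overlapped before centring. Relative to the library medians given above, both controls were above both LysMCre+ Rxrab fl/fl libraries at Gata6, Adgre1, Icam2 and Lyz2. That order held at 32.9% of all regions called in all 4 libraries. At Timd4 and Tgfb2 the genotypes overlapped on that scale too, and no marker was tested. Cd5l and Selp, not called in Rxrab fl/fl replicate 3, were lower in control replicate 1 than in both LysMCre+ Rxrab fl/fl libraries. Their values were 5.79 against 8.90 and 7.48, and 4.52 against 6.78 and 6.67. Of 7 markers of small peritoneal macrophages and monocytes, 4, 2, 6 and 5 were called, with sums of 41.8, 16.4, 61.2 and 51. Irf4 was highest in the first library and Clec10a in the others, and Ccr2 was called in none. Mrc1 was called in LysMCre+ Rxrab fl/fl alone, in both libraries, as was the LPM marker Itgam (6.06 and 8.68). Of 5 megakaryocyte and platelet markers, 2, 1, 1 and 1 were called, with Pf4 highest and sums of 13.5, 7.2, 8.5 and 5.16, while Gp9, Gp1ba and Ppbp were called in none.

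The LPM gate takes cells that carry CD45, CD11b and CD115, lack B220, and stain high for F4/80 and low for MHCII, so B, T, endothelial and mesothelial cells fall outside it. Among B cell markers, Ebf1 was called in every library but Rxrab fl/fl replicate 3, with fold enrichments of 11.7, 12 and 10.4, and Pax5 was called in none. T and NK cell markers were called at 1, 0, 1 and 1 of 5 genes (Cd2, with sums of 5.41, 0, 11 and 5.32), and Cd3e was called in none. Among 7 granulocyte and mast cell markers, S100a8 alone was called, in every library but Rxrab fl/fl replicate 3, with fold enrichments of 14, 16.6 and 16.1. Endothelial markers, of a cell type that carries thrombomodulin and the protein C receptor, were called at 1, 0, 2 and 1 of 5 genes, with sums of 4.38, 0, 12.5 and 5.13, and Cdh5 was called in none. Mesothelial markers were called at 0 of 5 genes in every library. The part of other cell types in the results was not tested. In these bulk libraries, more cells with an open region and a more open region in each cell cannot be told apart.

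Of the 70 clotting gene regions, 42 (60%), 13 (18.6%), 58 (82.9%) and 57 (81.4%) were called, against 52, 21.9, 90.7 and 77.2% of all merged regions. All 4 libraries called 13 of them (18.6%, against 21.5%). Every library but Rxrab fl/fl replicate 3 called 22 (31.4%, against 25.5%), and 1 library alone called 18 (25.7%, against 26.9%). Both LysMCre+ Rxrab fl/fl libraries and neither control called 15 regions (21.4%), near the 22.8% of all merged regions. The reverse pattern was found at 0 of the 70 regions and at 0.0452% of all regions. These counts moved with single libraries. Without Rxrab fl/fl replicate 1, both LysMCre+ Rxrab fl/fl libraries and not the remaining control called 37 of 65 regions (49.2% of all regions). Without LysMCre+ Rxrab fl/fl replicate 2, the remaining LysMCre+ Rxrab fl/fl library and neither control called 23 of 66 (44.3% of all). Without Rxrab fl/fl replicate 3, 5 of 70 (1.78% of all) were called by the control alone. By position, 9 regions lay at a promoter, within 1 kb upstream or 200 bp downstream of any annotated TSS, 28 in introns, 3 in coding exons and 30 between genes.

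Of these 15 regions, F13a1 held 10. F3, F10, F5, Procr and Serpinb2 held 1 each, and F7, Thbs1 and Thbd held none. At Thbs1, 11, 1, 5 and 8 of the 13 regions were called, so the most and the fewest calls were both in control libraries. The plot of calls by gene shows how many regions of each gene each library called.

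**Figure D1:**
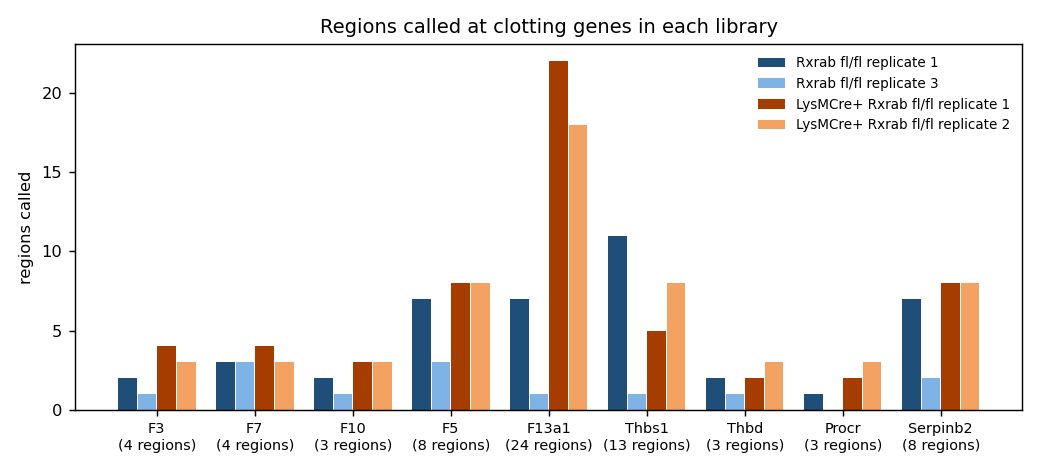
Number of regions of each of the 9 genes called in each of the 4 libraries. The bars do not show which libraries called the same region. F13a1 has the most regions, 24, of which 10 were called in LysMCre+ Rxrab fl/fl alone, and 5 of the 13 Thbs1 regions were called in Rxrab fl/fl replicate 1 alone.

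When the same number of peaks, 16097, was taken from each library by q value, 20 clotting gene regions were left, of 22300 in all. Of the 20, 17, 13, 11 and 9 were called (85, 65, 55 and 45%), in the order of libraries given above, against 71.4, 69.5, 71.9 and 72% of all regions. With equal numbers, 0 were called by LysMCre+ Rxrab fl/fl alone, in both libraries (7.82% of all regions) and 3 by the controls alone, in both libraries (7.22% of all regions). The 3 were the F3 region 1.56 kb upstream and the F7 regions 15.5 kb upstream and 1.78 kb downstream of the TSS. All 4 libraries called 6 of the 20 regions (30%, against 46.1% of all).

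At F3, which encodes tissue factor, 4 regions were found. The strongest (chr3:121721676-121722286) lay 1.56 kb upstream of the TSS, with fold enrichments of 10.2, 5.30, 9.75 and 8.87. Relative to the median of each library, the 2 genotypes overlapped there, and the log2 fold change between LysMCre+ Rxrab fl/fl and Rxrab fl/fl was −0.032 (standard error, SE, 0.21, with an adjusted p = 0.947 from limma). The pileup at this region was 67, 13, 46 and 40. On that measure both controls lay above both LysMCre+ Rxrab fl/fl libraries after centring, and the log2 change came to −0.33 (SE 0.24, adjusted p = 0.363 from limma), within the spread between replicates. Without Rxrab fl/fl replicate 3, this pileup change was −0.77. The F3 promoter region (chr3:121722945-121723762) had fold enrichments of 4.80, 4.98 and 5.70 in the 3 libraries that called it, all but Rxrab fl/fl replicate 3. A region 13.1 kb downstream was called only in LysMCre+ Rxrab fl/fl, at 8.60 and 6.73.

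F7 encodes factor VII, the protease that tissue factor binds, and lies directly upstream of F10 on chromosome 8. It had no region at its TSS. Its strongest region over the mean of 4 libraries (chr8:13028430-13028982), over a coding exon 2.67 kb downstream of the TSS, had fold enrichments of 14.1, 8.41, 15.2 and 12.8, and the genotypes overlapped after centring (log2 fold change −0.0093, adjusted p = 0.985 from limma). The pileup of this region was 202, 35, 135 and 81, with a log2 change of −0.55 (adjusted p = 0.127 from limma). After centring, both controls lay above both LysMCre+ Rxrab fl/fl libraries on that measure. The intronic region 1.78 kb downstream (chr8:13027649-13027980), shown above with its C/EBP match, was weaker. Its fold enrichment was 6.19, 5.29, 4.48 and 3.56, and its pileup 87, 21, 39 and 22. Both controls were above both LysMCre+ Rxrab fl/fl libraries in fold enrichment, although the pileup of Rxrab fl/fl replicate 3, the shallowest library, was the lowest before centring. The change in log2 fold enrichment was −0.89 (SE 0.25, adjusted p = 0.0867 from limma), which did not pass the threshold. The pileup relative to the library median fell by 1.41 on the log2 scale (SE 0.23, adjusted p = 0.0188 from limma). Another F7 region, in an intron of Mcf2l 15.5 kb upstream, was the higher of the 2 in replicate 1 of either genotype. It had fold enrichments of 15.3, 6.67, 15.7 and 11.9 and a log2 pileup change of −0.76 (adjusted p = 0.0569 from limma).

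F10 encodes factor X, on which the initiating complex acts. Its promoter region (chr8:13036154-13037451), 0.506 kb upstream, was its strongest by the mean and the widest of the 70. Fold enrichments were 11.5, 10.8, 9.21 and 9.16, and pileups 458, 102, 206 and 151. Both controls were above both LysMCre+ Rxrab fl/fl libraries in fold enrichment, and the log2 fold change was −0.64 (SE 0.27, adjusted p = 0.192 from limma). Over the library median, the pileup was 4.72 and 5.10 times as high in the controls, against 2.08 and 2.32 times in LysMCre+ Rxrab fl/fl, and the genotypes were further apart than the replicates. The pileup fell by 1.16 on the log2 scale (SE 0.22, adjusted p = 0.0222 from limma). A region over the 3′ end of F10, 19.4 kb downstream of its TSS and nearer to the TSS of Proz, was called only in LysMCre+ Rxrab fl/fl, with fold enrichments of 10.3 and 4.64, the first of them above the promoter region in that library.

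F5, which encodes the cofactor of activated factor X, had 8 regions, of which 7, 3, 8 and 8 were called (87.5, 37.5, 100 and 100%, against 52, 21.9, 90.7 and 77.2% of all merged regions). The strongest (chr1:164135183-164135850) lay 16.3 kb upstream, in an intron of the neighbouring gene Selp, with fold enrichments of 16.1, 12.2, 17.0 and 13.7 and a log2 fold change of −0.24 (adjusted p = 0.550 from limma). Its pileup was 319, 60, 194 and 137, with a log2 change of −0.63 (adjusted p = 0.0861 from limma). On the centred pileup, both controls lay above both LysMCre+ Rxrab fl/fl libraries. The promoter region (chr1:164151416-164152098) had fold enrichments of 11.3, 4.37, 13.6 and 9.45. There, both LysMCre+ Rxrab fl/fl libraries lay above both controls after centring, but the difference was within the spread between replicates (log2 fold change 0.32, SE 0.22, adjusted p = 0.410 from limma). Its pileup overlapped between genotypes (log2 change −0.031, adjusted p = 0.945 from limma), and without Rxrab fl/fl replicate 3 that change was −0.73. In the F5 intron 18.8 kb downstream (chr1:164170432-164170830), centred fold enrichment ran the other way from the promoter region. Fold enrichments were 9.44, 4.85, 5.59 and 6.44, and pileups 36, 9, 12 and 16. Relative to each library's median, both controls were above both LysMCre+ Rxrab fl/fl libraries, with a log2 fold change of −0.54 in fold enrichment (adjusted p = 0.193 from limma). On the pileup it fell by 1.24 on the log2 scale (SE 0.33, adjusted p = 0.0441 from limma). The F5 intron also held a region called only in LysMCre+ Rxrab fl/fl, 32.9 kb downstream, at 6.45 and 7.83.

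F13a1 encodes the catalytic subunit of factor XIII, the crosslinker of fibrin, and is on the minus strand of chromosome 13. Distances at F13a1 are from the nearer of its 2 annotated TSSs. With 24 regions, from 102 kb upstream to 147 kb downstream, F13a1 had the most of the 9 genes. Of these, 7, 1, 22 and 18 were called (29.2, 4.17, 91.7 and 75%, against the shares of all merged regions given at F5). Its promoter region (chr13:37048909-37049713) was called in neither control and had fold enrichments of 7.44 and 6.80 in LysMCre+ Rxrab fl/fl, with pileups of 45 and 36. These values lay near the middle of their libraries, at percentiles 45.1 and 45.5 of all peaks, so the F13a1 promoter was not among the weakest peaks of either library. The other 9 regions that LysMCre+ Rxrab fl/fl alone called lay from 99.6 kb upstream to 109 kb downstream, with fold enrichments between 3.64 and 10.2.

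The strongest F13a1 region by the mean (chr13:37056542-37057104), 6.58 kb upstream, was called in every library but Rxrab fl/fl replicate 3. Its fold enrichment reached 13.1 in control replicate 1, against 17.5 and 14.3 in LysMCre+ Rxrab fl/fl, and its pileup was 47, 76 and 63. In control replicate 1, the regions 60.7 and 38.4 kb downstream, with the same calls, were higher in fold enrichment than this one. They ran the other way, at 16.3 against 13.1 and 8.52 and at 15.6 against 12 and 9.78. Their pileups in control replicate 1 lay between those of LysMCre+ Rxrab fl/fl, at 52 against 60 and 38 and at 62 against 72 and 61. Centred without Rxrab fl/fl replicate 3, the log2 fold changes were −0.85 and −0.75 at these regions and 0.042 at 6.58 kb upstream. One F13a1 region (chr13:37121575-37122130), 71.6 kb upstream, was called in all 4 libraries, at 10.6, 4.85, 11.9 and 9.27. Both LysMCre+ Rxrab fl/fl libraries lay above both controls after centring, by less than the standard error (log2 fold change 0.18, SE 0.21, adjusted p = 0.621 from limma). Without Rxrab fl/fl replicate 3, the log2 fold change at this region turned negative, at −0.24. Its pileup overlapped between genotypes, with a log2 change of −0.096 (adjusted p = 0.827 from limma). The map of F13a1 regions shows each call by its distance from the TSS.

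**Figure D2:**
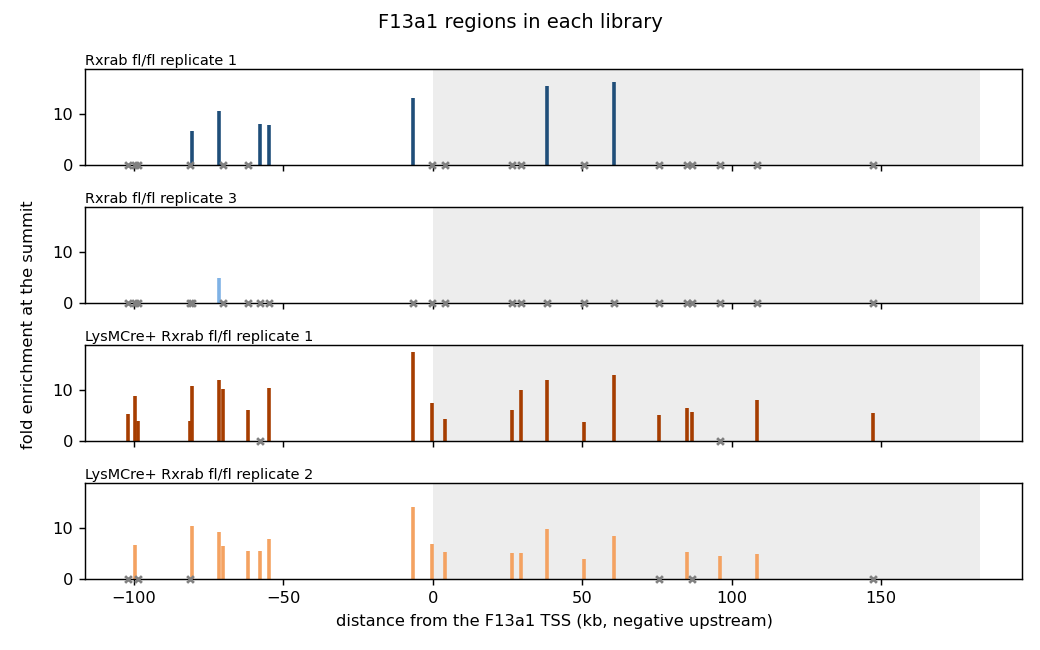
Fold enrichment of each F13a1 region in each library, by distance in kb from the nearer of the 2 annotated F13a1 TSSs, along the strand of the gene. Regions are spread from 102 kb upstream to 147 kb downstream, and Rxrab fl/fl replicate 3 called 1 of the 24.

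Thbs1 encodes thrombospondin-1, a matrix glycoprotein released by platelets and macrophages. Its promoter region (chr2:118111169-118112109) was its strongest, with fold enrichments of 12.3, 10.4, 12.5 and 12.6 that overlapped between genotypes (log2 fold change −0.22, SE 0.26, adjusted p = 0.641 from limma). The pileup there was 185, 49, 72 and 68, and the local background 14.1, 3.82, 4.86 and 4.46. Both controls were above both LysMCre+ Rxrab fl/fl libraries in centred pileup, which fell by 1.31 on the log2 scale (SE 0.26, adjusted p = 0.0248 from limma). Over the gene and downstream of it, from 5.20 to 20.5 kb from the TSS, the background was higher still and the peaks were weak. Fold enrichments of those 9 Thbs1 regions ranged from 1.87 to 3.73, while their pileups ranged from 30 to 120. In Rxrab fl/fl replicate 1, the 8 of them it called stood at or under percentile 0.273 of all peaks. The local background in Rxrab fl/fl replicate 1 reached 42.4 there, 15.8 kb downstream, against 11.6 and 22.2 in LysMCre+ Rxrab fl/fl.

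Thbd encodes thrombomodulin, which binds thrombin and turns it from fibrin formation to the activation of protein C. Its promoter region (chr2:148407541-148408505) had fold enrichments of 8.59, 6.07, 9.66 and 7.48 and pileups of 76, 20, 74 and 60. The genotypes overlapped on both measures, with log2 changes of −0.13 in fold enrichment (adjusted p = 0.751 from limma) and −0.092 in pileup (adjusted p = 0.817 from limma). Without Rxrab fl/fl replicate 3, the pileup change was −0.32. Procr encodes the endothelial protein C receptor, which presents protein C to that complex. Its promoter region (chr2:155751063-155751766) reached a fold enrichment of 4.67 in control replicate 1, against 9.01 and 8 in LysMCre+ Rxrab fl/fl, with pileups of 13, 30 and 23. Rxrab fl/fl replicate 3 did not call it, so the region was not in the test of 4 libraries. A Procr region 8.09 kb upstream was called only in LysMCre+ Rxrab fl/fl, at 3.87 and 5.29.

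Serpinb2 encodes plasminogen activator inhibitor type 2, an inhibitor of fibrinolysis that macrophages make. Its strongest region (chr1:107496772-107497396), 14.3 kb upstream, had the highest fold enrichment of the 70 in every library, at 26.7, 13.2, 24.8 and 22.1. These values stood at percentiles 99.5, 89.7, 98.7 and 99.3 of the peaks of each library. The genotypes overlapped after centring (log2 fold change −0.048, adjusted p = 0.914 from limma), and the pileup of 256, 38, 130 and 91 gave a log2 change of −0.72 (adjusted p = 0.0790 from limma). At the region 9.22 kb upstream (chr1:107502064-107502335), fold enrichments were low and close together, at 4.45, 4.26, 4.30 and 4.60. Its pileup was 29, 11, 15 and 14. Relative to each library's median, both controls were above both LysMCre+ Rxrab fl/fl libraries, and the pileup fell by 1.17 on the log2 scale (SE 0.32, adjusted p = 0.0486 from limma).

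Other Serpinb2 regions could not be compared in all 4 libraries. The promoter region (chr1:107511078-107511585), called in every library but Rxrab fl/fl replicate 3, reached 6.47 in fold enrichment in control replicate 1, against 4.55 and 4.51 in LysMCre+ Rxrab fl/fl. Over the 22 clotting gene regions with these calls, Serpinb2 and the other genes together, control replicate 1 was above both LysMCre+ Rxrab fl/fl libraries in fold enrichment at 8 (36.4%, against 11.9% of all regions with these calls), below both at 9 (40.9%, against 64%) and between them at 5 (22.7%, against 24%). An intronic region 2.26 kb downstream was called only in LysMCre+ Rxrab fl/fl, at 6.67 and 5.64.

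Across the 13 regions called in all 4 libraries, 0 passed the limma threshold on fold enrichment (adjusted p under 0.05 over all 15199 regions and a log2 fold change past 1) in either direction. Over all regions, 0.0395% passed as higher and 0.0461% as lower in LysMCre+ Rxrab fl/fl. At an unadjusted p under 0.05 there were 3 of the 13, and 3345 of all 15199. The log2 fold changes of the 13 ranged from −0.89 to 0.32, with a median of −0.13, against −0.087 over all regions. Both LysMCre+ Rxrab fl/fl libraries lay above both controls at 2 of the 13 regions (22.3% of all regions), and both controls lay above at 3 (32.9% of all regions). At the remaining 8 the genotypes overlapped. Without Rxrab fl/fl replicate 1, F7 and F10 (2 regions) passed as lower on fold enrichment (3.57% of all regions), at −1.25 and −1.08, and without Rxrab fl/fl replicate 3, 1 region of 35 did (1.28%), at Serpinb2 7.91 kb upstream (−1.14, adjusted p = 0.0444 from limma). Without Rxrab fl/fl replicate 3, the control also lay above both LysMCre+ Rxrab fl/fl libraries at 24 of the 35 regions (49.9% of all regions) and below both at 4 (32.0%). Without Rxrab fl/fl replicate 1 the control lay above at 8 of 13 (54.0%), without LysMCre+ Rxrab fl/fl replicate 2 both controls did at 8 of 14 (45.7%), and without LysMCre+ Rxrab fl/fl replicate 1 they lay below at 4 of 13 (31.2%). With 3 libraries, separation is more frequent by construction.

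On the pileup, 5 of the 13 regions passed as lower in LysMCre+ Rxrab fl/fl, against 4.98% of all regions, and 0 passed as higher, against 2.49%. In limma, 9 of the 13 were at an unadjusted p under 0.05, against 33.2% of all regions. The 5 were those at F7, F10, F5, Thbs1 and Serpinb2 described above. Within 100 bp of the summit, the C/EBP pattern lay at 4 of them (against 11.1% of all 757 regions past this threshold as lower), the GATA pattern at 2 (18.1%) and AP-1 at 1 (12.2%), while KLF (19%), the E-box (8.19%), PU.1 (3.57%), DR1 (0.661%) and DR5 (0.793%) were found at 0. The median log2 pileup change of the 13 was −0.72, against −0.10 over all regions, and all 13 values were negative, from −1.41 to −0.031. Both controls were above both LysMCre+ Rxrab fl/fl libraries at 10 of the 13 (36.9% of all regions), and the reverse held at 0 (25.2% of all regions). The number past the threshold was 5 without Rxrab fl/fl replicate 1 (8.31% of all regions) and 1 without LysMCre+ Rxrab fl/fl replicate 1 (2.94% of all regions). Without LysMCre+ Rxrab fl/fl replicate 2 it was 0, as it was over all 15336 regions tested. The 1 left was F7, at −1.52 (adjusted p = 0.0428 from limma), and the other 4 ranged from −1.08 at F10 to −0.73 at F5 (adjusted p from 0.0623 to 0.161 from limma). Without LysMCre+ Rxrab fl/fl replicate 2, the log2 changes of the 5 regions ranged from −1.76 to −1.25, with adjusted p-values from 0.0908 to 0.136 from limma. The plot of values relative to the library median gives all 13 regions on both measures.

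**Figure D3:**
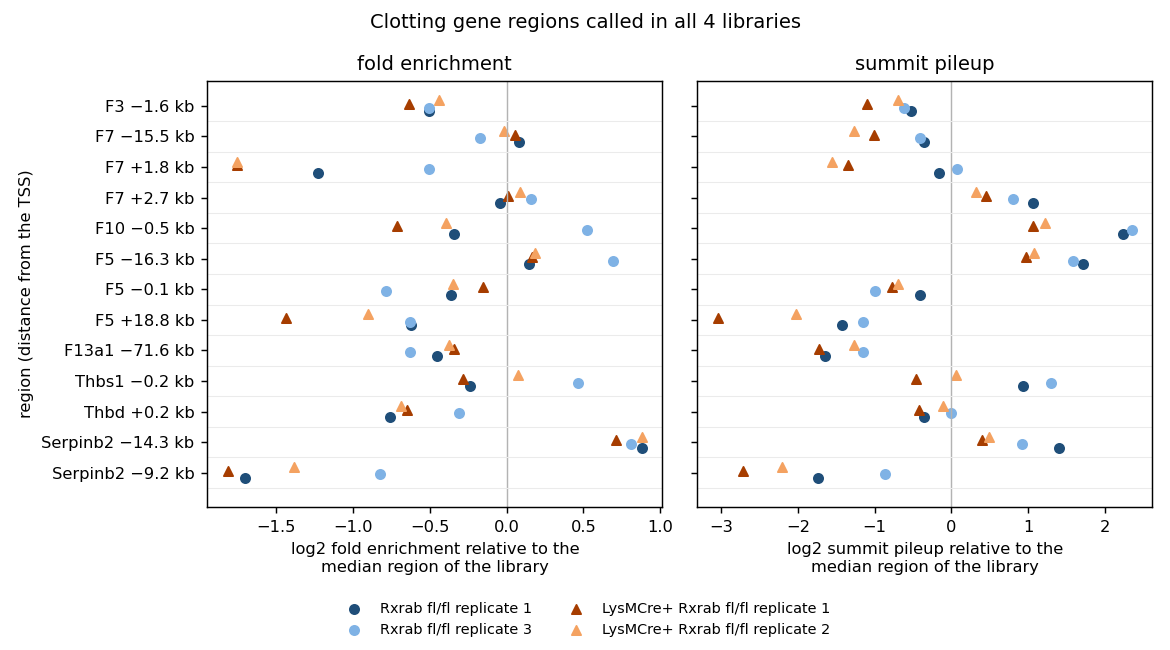
Log2 fold enrichment and log2 summit pileup of the 13 clotting gene regions called in all 4 libraries, each relative to the median of its library; each point is 1 library. On the pileup, both Rxrab fl/fl points lie above both LysMCre+ Rxrab fl/fl points at 10 of the 13 regions.

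The local background moved with the pileup at 4 of these 5 regions. Over the median background of each library, it was 6.74 and 4.74 in the controls and 3.78 and 3.53 in LysMCre+ Rxrab fl/fl at the F10 promoter. At the Thbs1 promoter it was 2.44 and 2.12 against 0.856 and 1.01, and at the Serpinb2 region 9.22 kb upstream 0.99 and 1.01 against 0.479 and 0.511. At the F7 intronic region it was 2.28 and 1.76 against 1.39 and 1.24. At the F5 intronic region, the background of Rxrab fl/fl replicate 3 and LysMCre+ Rxrab fl/fl replicate 1 was the lowest value of each library, 1.06 and 1.33, so it was not read as local there. At the other 4, both controls were above both LysMCre+ Rxrab fl/fl libraries in background as well as in pileup. Fold enrichment, the ratio of both, passed the threshold at none of the 5. This order in background was not limited to the 5. Among the other regions called in all 4 libraries, it was found at F3 1.56 kb upstream (0.972 and 0.911 against 0.673 and 0.819). The F5 promoter had it (0.959 and 0.844 against 0.588 and 0.756), as did F5 16.3 kb upstream (3.26 and 2.23 against 1.85 and 2.06). So did F7 15.5 kb upstream (0.693 and 0.778 against 0.384 and 0.308) and 2.67 kb downstream (2.31 and 1.82 against 1.39 and 1.23). Serpinb2 14.3 kb upstream had it too (1.49 and 1.09 against 0.754 and 0.715). Of these other regions, the genotypes overlapped in background only at the Thbd promoter and the F13a1 region 71.6 kb upstream. The share of all regions with this order is not given here. Whether the wider background or the summit itself differed was not tested.

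**Figure D4:**
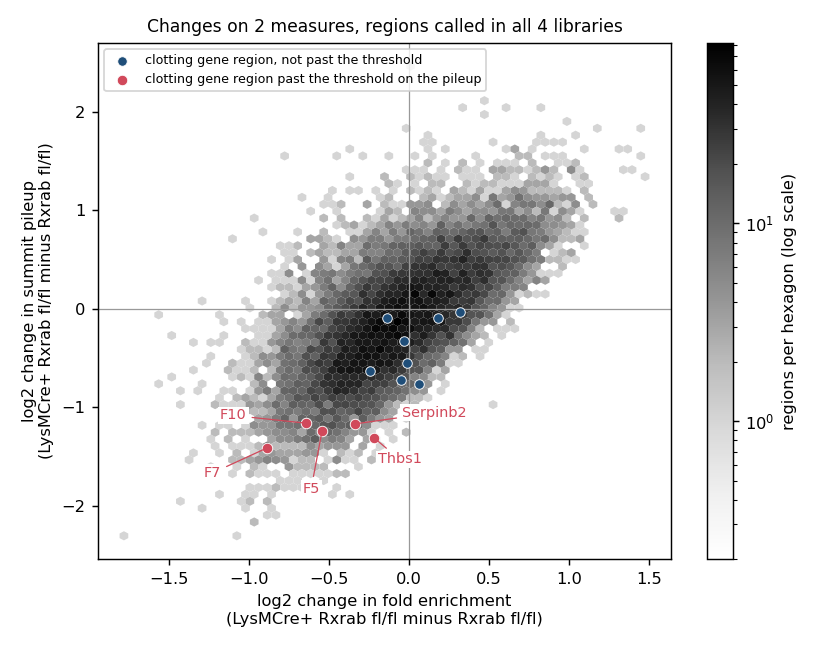
Log2 change between LysMCre+ Rxrab fl/fl and Rxrab fl/fl in fold enrichment and in summit pileup for all regions called in all 4 libraries, as hexagons shaded by the number of regions, with the 13 clotting gene regions as points. All 13 points are below 0 on the pileup axis, and the 5 past the threshold are named by gene.

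Rxrab fl/fl replicate 3 set which regions could be compared. Without it, with 1 control library left and assumed to vary like the others, 35 clotting gene regions had a pileup in each of the 3 libraries. Of these, 17 passed as lower in LysMCre+ Rxrab fl/fl, against 7.90% of all regions, and 0 as higher, against 5.17%. By gene, 3 of 3 regions passed at F7, 1 of 2 at F10, 4 of 7 at F5, 4 of 5 at Thbs1 and 5 of 7 at Serpinb2. At F3 (2 regions), F13a1 (6), Thbd (2) and Procr (1), 0 passed. The largest of the 17 changes was at Serpinb2 7.91 kb upstream (chr1:107503332-107503696), at −2.11 (adjusted p = 0.0000309 from limma), with pileups of 81 in the control and 21 and 20 in LysMCre+ Rxrab fl/fl and fold enrichments of 13.1, 6.63 and 7.29. These counts rest on Rxrab fl/fl replicate 1 as the only control.

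A wider list of 41 genes of coagulation and fibrinolysis was read in the same way. Of these, 30 had at least 1 region, 124 in all, and 11 had none, among them Fga and Fgb, which encode chains of fibrinogen, and Serpinc1, which encodes antithrombin. The 124 regions were called 56, 20, 115 and 93 times. These are 45.2, 16.1, 92.7 and 75%, against 52, 21.9, 90.7 and 77.2% of all merged regions. Both LysMCre+ Rxrab fl/fl libraries and neither control called 35 (28.2%, against the 22.8% of all regions given above). Both controls and neither LysMCre+ Rxrab fl/fl library called 0. The region nearer to Proz over the 3′ end of F10 (chr8:13056522-13056964) is counted in both lists, here among the anticoagulant genes. By role, both LysMCre+ Rxrab fl/fl libraries and neither control called 12 of 22 regions of anticoagulant genes (54.5%) and 8 of 23 of thrombin and protease receptors (34.8%). The same pattern was found at 2 of 6 of other thrombospondins (33.3%), 7 of 24 of clotting factors (29.2%) and 6 of 49 of fibrinolysis genes (12.2%). Of the 20 regions called in all 4 libraries, 0 passed the limma threshold on fold enrichment or on the pileup in either direction, with 2 and 3 at an unadjusted p under 0.05, against 22 and 33.2% of all regions. Their median log2 change was 0.0090 in fold enrichment and 0.075 in pileup, from −0.57 to 0.62 in the latter.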

How the data were processed

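Peak lists of ATAC-seq from 4 libraries were used. According to the submitters' processing notes and the methods, the authors trimmed reads with cutadapt, aligned them to mm10 with Bowtie2, removed duplicates and reads on sex chromosomes, and called peaks in each library with MACS2 2.1.1 at a q of 0.05. The deposited values were a fold enrichment, which is a ratio over local background with a pseudocount of 1, and the −log10 p and q values. The deposited score is a whole number derived from the q value and was not used, and the other deposited column was the offset of the summit in bp.

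Peaks sharing 1 bp were merged and assigned to the nearest TSS of 43783 curated RefSeq transcripts on autosomes. The whole pileup was solved from the fold enrichment and the Poisson p-value for at least 99.9969% of the peaks of each library. Log2 values of regions called in all 4 libraries were centred on each library's median and compared with limma 3.58.1 (R 4.3.3), as LysMCre+ Rxrab fl/fl minus Rxrab fl/fl, with p-values adjusted by Benjamini-Hochberg over all regions. The threshold was a log2 fold change past 1 together with an adjusted p under 0.05. Depth was read as peaks and median pileup, since read totals were not used here, and a region not called has no value, which is not a value of 0. The tools were pandas 2.3.3, numpy 2.4.6, scipy 1.17.1, pysam 0.24.0 and matplotlib 3.10.9 under Python 3.11.15. The pileup solution and the limma fit were tested on simulated data.

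All 9 genes were named. Values were given for regions at a TSS, the region of each gene with the highest mean log2 fold enrichment, regions past a threshold with all 4 libraries and those called only in both libraries of 1 genotype, and of the wider list for genes with a region past a threshold, of which there were 0. The regions of F7 15.5 kb upstream, F13a1 71.6 kb upstream and 38.4 and 60.7 kb downstream, Thbs1 15.8 kb downstream and Serpinb2 7.91 kb upstream are outside this rule and were named after their values were seen. F3, F7, F10, F5, F13a1, Procr and Serpinb2 matched the RefSeq promoter table of GRCm38, and Thbs1 and Thbd did not. Part of the marker results is not reported here. The members and lists were chosen with earlier results of these data known. Alternatives were a q of 0.01, equal numbers of peaks, summits with 100 bp to each side in place of whole peaks, nearest TSS alone, the summit pileup, no centring, quantile normalization, regions called in at least 2 libraries, a variance trend, the adjusted p alone, and leaving out each library.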

Additional observations from a re-analysis of the deposited data

How the results depend on the processing

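No paired analysis was possible because the genotypes share only replicate number 1 and nothing in the labels pairs the libraries. In fits without 1 library, the lone library of a genotype is assumed to vary like the others. Leaving out libraries on the pileup, and counting regions whose genotypes do not overlap under alternatives, were chosen after seeing the data. Fold enrichment and pileup are read at called peaks alone, so depth limits which regions have a value, above all in Rxrab fl/fl replicate 3. Without centring, the median log2 change of all regions moved by 0.368 to 0.281, and with regions called in at least 2 libraries by 0.283. Of 152 alternative values at 11 named regions, 122 were counted as keeping their direction and their side of the threshold. These include the values under the adjusted p alone, which repeat the main value by construction. They also include Serpinb2 9.22 kb upstream with quantile normalization, where there was no change and so no direction to keep. Where a value changed, the cause was not tested.

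The 15 clotting gene regions that LysMCre+ Rxrab fl/fl alone called became 0 with equal numbers of peaks and 15 to 37 without 1 library. The count of 0 called in both controls and neither LysMCre+ Rxrab fl/fl library was 3 with equal numbers. For every control left and no LysMCre+ Rxrab fl/fl library, it was 0 to 5 without 1 library. Of clotting gene regions past the limma threshold, 0 were lower on fold enrichment, 5 on the pileup and 0 to 2 without 1 library, and 0 were higher under each alternative. On the pileup, the 5 lower became 0 to 17 without 1 library. Regions where both LysMCre+ Rxrab fl/fl libraries lay above numbered 2, and 0 on the pileup, 1 without centring and 2 to 4 without 1 library. Those with both controls above numbered 3, and 10 on the pileup and 3 to 24 without 1 library.

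Of all regions, 6 were higher and 7 lower. These counts were 379 and 757 on the pileup, 0 and 0 without centring, 2750 and 137 with regions called in at least 2 libraries, and 61 and 76 with a variance trend, and 2 were lower with quantile normalization. Without 1 library, 3 to 757 were higher and 9 to 543 lower.

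Without centring, log2 changes in fold enrichment turned positive at F3 1.56 kb upstream (0.34), F7 2.67 kb downstream (0.36), F5 16.3 kb upstream (0.12), the Thbs1 promoter (0.15), the Thbd promoter (0.24), and Serpinb2 14.3 kb (0.32) and 9.22 kb upstream (0.032). With quantile normalization this was so at F3 (0.058) and at Serpinb2 14.3 kb upstream (0.035), and without LysMCre+ Rxrab fl/fl replicate 1 at F3 (0.068), F7 2.67 kb downstream (0.032) and Serpinb2 14.3 kb upstream (0.038). Over the leave-outs, the values ranged from −0.37 to 0.068 at F3, from −0.24 to 0.032 at F7 2.67 kb downstream and from −0.42 to 0.038 at Serpinb2 14.3 kb upstream. They ranged from −0.88 to −0.27 at F5 18.8 kb downstream, from −0.52 to −0.23 at F5 16.3 kb upstream and from −0.78 to −0.12 at Serpinb2 9.22 kb upstream. At the Thbs1 and Thbd promoters, they ranged from −0.57 to −0.037 and from −0.36 to −0.11. The F5 promoter turned negative on the pileup (−0.031) and without Rxrab fl/fl replicate 3 (−0.22), with a range over the leave-outs from −0.22 to 0.54. Without Rxrab fl/fl replicate 1, fold enrichment passed the threshold at F7 1.78 kb downstream (−1.25, adjusted p = 0.000733 from limma) and at the F10 promoter (−1.08, adjusted p = 0.00186 from limma), against adjusted p-values of 0.0867 and 0.192 with all libraries.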
